A study of Mus musculus with 22 samples.

Results

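The 35 genes described here carry glucose into the cell, break it down through glycolysis, or divert glucose 6-phosphate into the pentose phosphate pathway. They also send pyruvate to lactate or limit its use in the mitochondrion. They were chosen by name as textbook members of these pathways, with earlier results of these data known. All 35 were found among the 23286 entries of the deposited table, and 31 had an FPKM above 1 in every condition. FPKM is the number of sequenced fragments scaled to transcript length and to the fragments mapped, so that levels of different genes can be compared per length. The cells were primary mouse embryonic palatal mesenchyme (MEPM) cells, taken from the secondary palatal shelves of wild-type C57BL/6 embryos at E13.5, grown to the second passage and kept overnight in low serum. The 22 samples make up 10 conditions. In 4 of these, FGF1 (50 ng/mL, given together with 1 ug/mL heparin) followed pretreatment with LY294002 (LY, 10 uM, an inhibitor of PI3K) or PD325901 (PD, 1 uM, an inhibitor of MEK1/2), and lasted 4 hr or 1 hr. Another 4 had PDGFA (30 ng/mL) after the same inhibitors for the same times, and the last 2 had FGF1 or PDGFA without inhibitor for 4 hr. Each inhibitor condition had 2 samples and each ligand-alone condition 3, replicates coming from separate litters. All cells shared the low serum, and no condition without ligand and no 1 hr condition without inhibitor was analysed here.

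Glucose enters through transporters of the GLUT family and is trapped by hexokinase, after which phosphofructokinase commits it to glycolysis and pyruvate kinase yields pyruvate. Lactate dehydrogenase and the monocarboxylate transporters dispose of that pyruvate as lactate. Pyruvate dehydrogenase kinases (PDKs) limit the use of pyruvate within the mitochondrion by switching off pyruvate dehydrogenase. Growth factors are known to feed into these steps through PI3K and AKT, which restrain FOXO transcription factors, and through ERK and MYC, and dividing mesenchyme uses the pentose phosphate branch for NADPH and ribose.

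The deposited table gives 1 value per gene and condition, pooled over the samples, so no spread between replicates could be calculated and no test was run. Genes had to exceed 1 FPKM on either side of a comparison and are called higher or lower once their ratio reaches 1.5-fold, and every count of these genes is read beside the percent of all genes that passed the same rule. In bulk RNA, fewer cells of a type and less RNA per cell cannot be told apart. PD left its mark on the 8 ERK target genes listed (*Dusp4*, *Dusp5*, *Dusp6*, *Spry2*, *Spry4*, *Etv4*, *Etv5*, *Fosl1*). All passed 1.5-fold as lower at 4 hr with PD than with the same ligand alone (11.6% of all genes with FGF, 9.57% with PDGF). With FGF + LY, *Dusp4*, *Dusp5*, *Dusp6* and *Spry2* were higher than with FGF alone, *Dusp6* at 109 and 51.8 FPKM, and the others did not pass. The part of this in the LY to PD ratios with FGF was not tested. Of 9 palatal mesenchyme markers, 8 were above 1 FPKM everywhere. Epithelial, endothelial and blood markers peaked at 8.59 (*Krt18*), 4.39 (*Kdr*) and 1.71 FPKM (*Lyz2*). The 4 endothelial markers summed to 1.42 to 2.35 FPKM over the LY conditions and 4.19 to 6.11 over the PD conditions, with *Pecam1* and *Cdh5* below 1 everywhere, and their part in the results was not tested. Of 9 reference genes, 8 could be compared, and 0 of them passed 1.5-fold between LY and PD at 4 hr or 1 hr with either ligand.

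Features of the table bear on certain members and come before the results. With FGF alone for 4 hr, the 393 genes tested on chromosome X had a median FGF to PDGF ratio of 0.681, and the 432 genes on chromosome 9 from *Cryab* onward had 0.667, whereas the 205 genes before *Cryab* had 1.01 and the 10328 genes on other chromosomes 0.9995. In the 14 comparisons that do not use this condition, the medians of chromosomes 9 and X lay between -0.19 and 0.06 on the log2 scale. The cause was not tested. *Pkm* and *Pfkfb4*, on chromosome 9 beyond *Cryab*, and *Pgk1* and *G6pdx*, on chromosome X, are the 4 members concerned, and each comparison with 4 hr FGF is also given without them. In addition, 12 members share at least 20% of their 31-base words with other genes, many of them processed pseudogenes: *Gpi1*, *Aldoa*, *Pfkfb2*, *Gapdh*, *Pgk1*, *Pgam1*, *Eno1*, *Eno1b*, *Pkm*, *Ldha*, *Ldhb* and *Taldo1*. Their values depend on how reads that fit several genes were assigned and are uncertain.

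**Figure D1:**
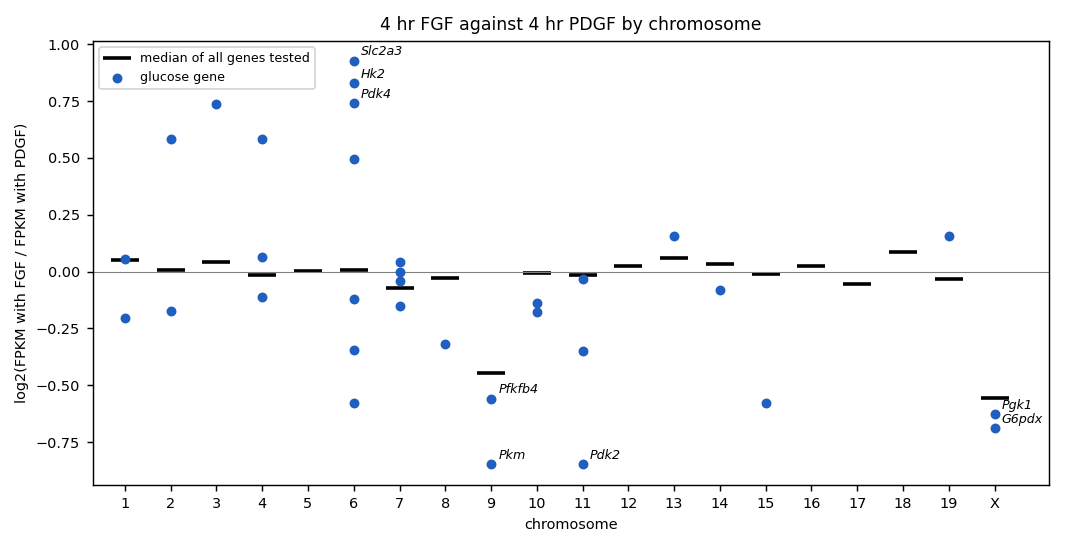
Log2 ratio of FPKM with FGF over FPKM with PDGF at 4 hr, by chromosome. Black bars are medians of all genes tested and blue points are the glucose genes that passed the filter. The medians of chromosomes 9 and X lie well below 0 and the other chromosomes near 0, and *Pkm*, *Pfkfb4*, *Pgk1* and *G6pdx* lie with the low chromosomes.

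The members differed far more from each other in level than any one of them did between conditions, the uncertain *Eno1b* aside. *Aldoa* (aldolase A, which splits fructose 1,6-bisphosphate), *Pkm* (pyruvate kinase) and *Ldha* (the lactate dehydrogenase subunit favouring lactate) were the highest per length, with medians over the 10 conditions of 334, 256 and 149 FPKM. *Slc16a3* (the lactate exporter MCT4) had the lowest median of the members that could be compared, 0.690 FPKM. *Gapdh* (glyceraldehyde 3-phosphate dehydrogenase) was listed at 0 to 0.676 FPKM and passed the filter in no comparison; 84.1% of its words occur in other genes, and *Ppia*, a reference gene with many pseudogenes, was listed at 0.692 FPKM or less. Together the members took 0.320% of the summed FPKM in 4 hr PDGF + LY and 0.479% in 4 hr PDGF, the lowest and the highest of the 10 conditions. *Hk1*, *Gpi1*, *Pfkl*, *Pfkp*, *Aldoa*, *Ldhb*, *Rpe* and *Tkt* passed 1.5-fold in none of the 17 comparisons made.

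**Figure D2:**
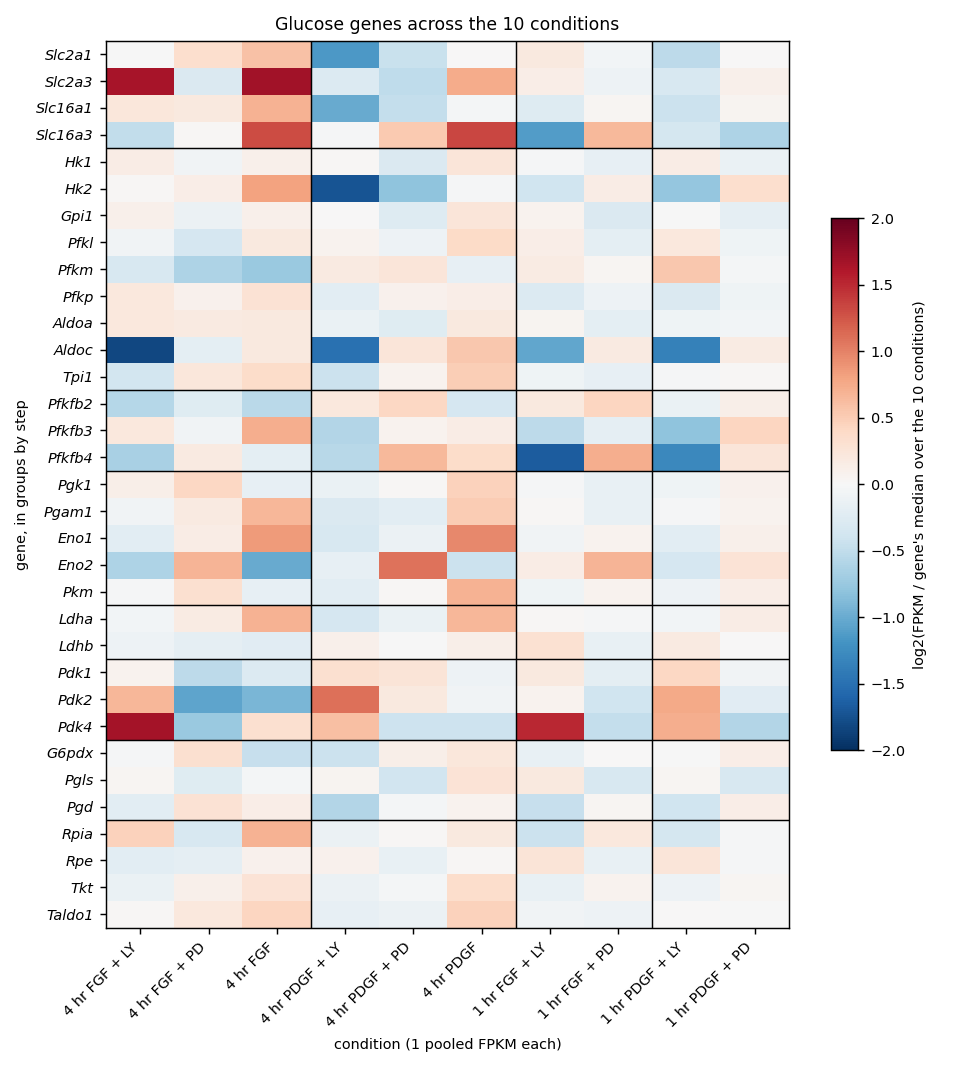
Log2 of each gene's FPKM over its own median across the 10 conditions, for 33 members (*Gapdh* and *Eno1b* are left out), in groups by step. Red is above and blue below the gene's median. *Aldoc* and *Pfkfb4* are blue in all 4 LY columns, and *Pdk4* is red in them.

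LY and PD could be compared at matched times under the same ligand. *Pdk4*, which encodes a PDK, was higher with LY in every pair, *Aldoc* and *Pfkfb4* were lower in every pair, and *Pdk2* (higher) and *Eno2* (lower) passed the rule in 3 of the 4 pairs. In FGF-treated cells at 4 hr, 33 members could be compared, of which 5 were higher with LY (11.6% of all genes were) and 4 lower (12.6% of all genes), with a median log2 ratio of -0.02 beside 0.00 over all genes. In PDGF-treated cells at 4 hr, 2 of 33 were higher (6.97% of all genes) and 6 lower (12.8%), with a median of -0.14 beside -0.04. At 1 hr, 2 of 34 members were higher (7.78%) and 4 lower (12%) with FGF, and 2 of 33 were higher (6.21%) and 5 lower (8.86%) with PDGF. The medians at 1 hr were 0.07 with FGF and -0.15 with PDGF, beside -0.02 and -0.00 over all genes. As a group, therefore, these genes passed the rule about as often as genes in general. *Pdk4* was the only member higher with LY in all 4 pairs (1 of 33, beside 1.22% of all genes), and *Aldoc* and *Pfkfb4* were the only members lower in all 4 (2 of 33, beside 2.67%). Counts of 1 and 2 are too few to be set apart from these shares, so the genes are described by their values only.

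**Figure D3:**
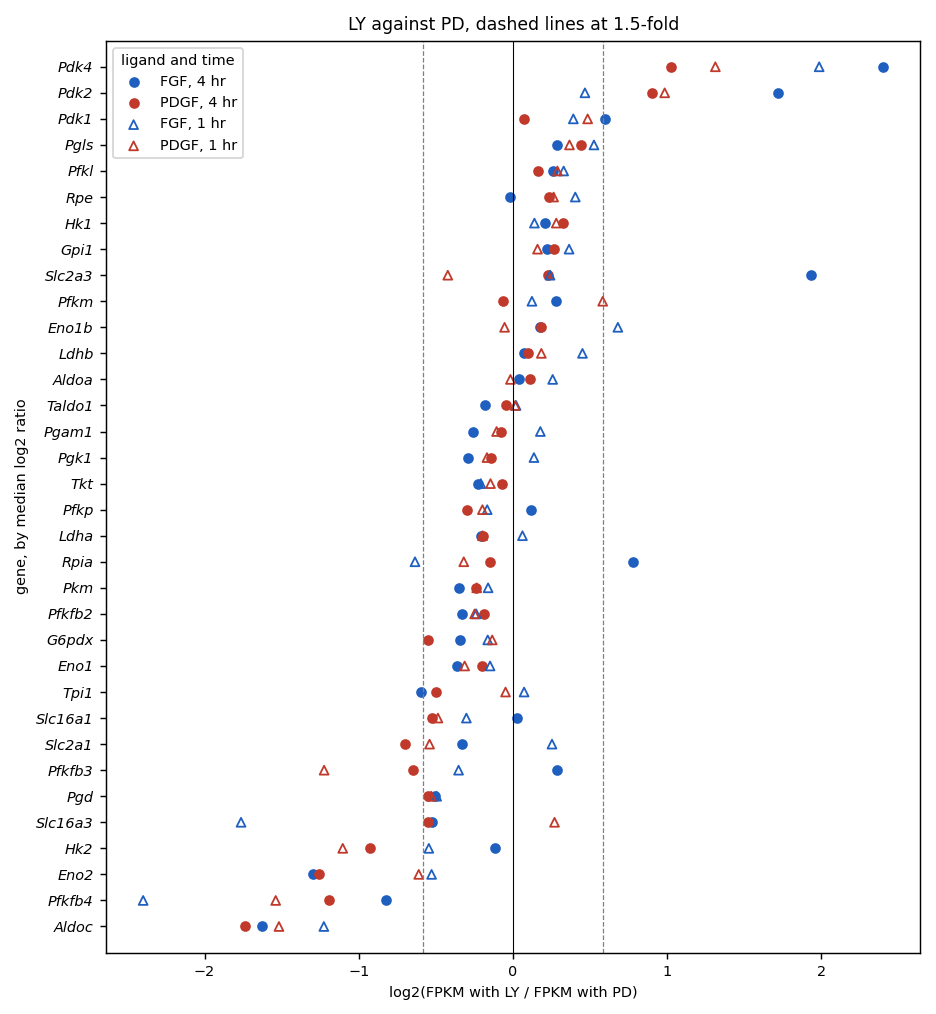
Log2 ratio of FPKM with LY over FPKM with PD for 34 members (all but *Gapdh*), ordered by median ratio. Circles are 4 hr and triangles 1 hr, blue is FGF and red PDGF, and dashed lines mark 1.5-fold. *Pdk4* lies right of the lines in all 4 pairs, *Aldoc* and *Pfkfb4* lie left of them in all 4, and most members lie between the lines.

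*Pdk4*, a PDK induced by fasting and a textbook FOXO target, was at 18.2 FPKM with FGF + LY and 3.44 with FGF + PD at 4 hr, and at 16.4 and 4.13 FPKM in these conditions at 1 hr. With PDGF it was at 8.73 FPKM with LY and 4.29 with PD at 4 hr, and at 9.53 and 3.84 at 1 hr. The ligand-alone conditions had 7.18 FPKM with FGF and 4.30 with PDGF. Every LY condition thus lay above every PD condition and both ligand-alone conditions, and the ratios of LY to PD were 5.29 and 2.04 at 4 hr (FGF, PDGF) and 3.96 and 2.48 at 1 hr. *Pdk2*, the more widely expressed PDK, was at 11.1 FPKM with FGF + LY and 3.37 with FGF + PD at 4 hr, a 3.30-fold difference, and at 7.38 and 5.34 FPKM at 1 hr, which did not reach 1.5-fold. With PDGF it was at 15.1 FPKM with LY and 8.08 with PD at 4 hr (1.87-fold), and at 11.8 and 5.99 FPKM at 1 hr (1.98-fold). Its levels with ligand alone were 3.73 FPKM with FGF and 6.70 with PDGF, so that LY stood above ligand alone and PD close to it. *Pdk1*, a HIF target in hypoxic cells, passed the rule in FGF-treated cells at 4 hr at 1.51-fold (3.83 FPKM with LY and 2.54 with PD), and its other LY and PD values lay between 3.18 and 4.83 FPKM. *Pdk4* made up 15.7 to 31.4% of the summed FPKM of *Pdk1*, *Pdk2*, *Pdk3* and *Pdk4* with LY and 8.66 to 9.95% with PD.

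The 250 bases before the RefSeq starts of *Pdk4* and *Pdk2* (GRCm38.p6) are shown because both genes were higher with LY at 4 hr. CACGTG, the E-box bound by MYC, MondoA and related factors, is in capitals. Both strands were searched for it, for GTAAACA (the FOXO core) and for ACGTG (the hypoxia core, which every CACGTG also holds). Of 32851 mouse promoter windows of this length, 6.02% hold CACGTG, 3.17% GTAAACA and 16.6% ACGTG. The *Pdk4* window holds none of them and the *Pdk2* window shown 1 CACGTG. The other *Pdk2* window, not shown, holds none of them. These are matches of letters and no measurement of binding.
Pdk4, chr6:5496279-5496528, minus strand: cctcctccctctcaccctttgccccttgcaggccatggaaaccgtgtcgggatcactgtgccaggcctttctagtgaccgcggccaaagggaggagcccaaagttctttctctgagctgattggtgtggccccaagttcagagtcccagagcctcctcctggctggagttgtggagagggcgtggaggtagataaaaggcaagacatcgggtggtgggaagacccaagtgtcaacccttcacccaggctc
Pdk2, chr11:95041372-95041621, minus strand: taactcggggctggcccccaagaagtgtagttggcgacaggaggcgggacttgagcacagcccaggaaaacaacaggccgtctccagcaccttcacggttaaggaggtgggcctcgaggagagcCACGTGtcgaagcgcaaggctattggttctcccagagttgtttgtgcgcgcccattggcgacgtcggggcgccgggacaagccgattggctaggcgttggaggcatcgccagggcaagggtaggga

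*Aldoc*, the aldolase best known from brain, had the lower LY value in all 4 pairs. At 4 hr it was at 1.45 FPKM with FGF + LY and 4.48 with FGF + PD, and at 1.81 FPKM with PDGF + LY and 6.05 with PDGF + PD. At 1 hr the values were 2.48 FPKM with FGF + LY and 5.81 with FGF + PD, and 2.01 with PDGF + LY and 5.75 with PDGF + PD. LY was thus 3.10-fold and 3.34-fold lower than PD at 4 hr and 2.34-fold and 2.86-fold lower at 1 hr (FGF, PDGF). With ligand alone *Aldoc* was at 5.87 FPKM (FGF) and 7.47 FPKM (PDGF), and LY was 4.05-fold and 4.12-fold below them. *Aldoa*, which supplied 97.9% or more of the summed FPKM of both aldolases in every condition, stayed between 283 and 388 FPKM. *Pfkfb4*, a bifunctional enzyme that sets fructose 2,6-bisphosphate, the activator of phosphofructokinase, was at 1.52 FPKM with FGF + LY and 2.69 with FGF + PD at 4 hr, and at 0.753 and 3.97 FPKM at 1 hr. With PDGF it was at 1.63 FPKM with LY and 3.73 with PD at 4 hr, and at 0.973 and 2.83 at 1 hr. Its difference was largest at 1 hr, 5.27-fold with FGF and 2.91-fold with PDGF, beside 1.77-fold and 2.29-fold at 4 hr. Its value with PDGF alone was 3.07 FPKM, and that with FGF alone, 2.08 FPKM, is one of the values affected on chromosome 9. Both genes are weakly expressed, and the reads behind these values are unknown.

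*Pfkfb3*, the inducible relative with the strongest kinase activity, was at 4.16 FPKM with PDGF + LY and 6.52 with PDGF + PD at 4 hr, and at 3.58 and 8.37 FPKM at 1 hr. These were falls of 1.57-fold and 2.34-fold with LY relative to PD. With FGF the LY and PD values were 7.24 and 5.94 FPKM at 4 hr and 4.32 and 5.52 at 1 hr, and did not pass the rule. *Pfkfb2*, the heart-type enzyme phosphorylated by AKT, ranged from 4.07 to 8.13 FPKM and differed between LY and PD by less than 1.5-fold throughout. The 250 bases before the *Pfkfb4* start and before a second, downstream start of *Aldoc* are shown as the genes lower with LY at both times. The single FOXO-type match among all members lies in that *Aldoc* window, on the minus strand (TGTTTAC, in capitals), and the window before the upstream *Aldoc* start and that of *Pfkfb4* hold none of the 3 motifs.
Aldoc, chr11:78323948-78324197, plus strand: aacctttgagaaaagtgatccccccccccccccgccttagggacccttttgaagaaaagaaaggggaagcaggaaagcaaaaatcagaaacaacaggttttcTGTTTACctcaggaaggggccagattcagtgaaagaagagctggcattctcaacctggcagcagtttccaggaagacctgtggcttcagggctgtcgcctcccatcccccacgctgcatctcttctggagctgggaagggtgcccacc
Pfkfb4, chr9:108991652-108991901, plus strand: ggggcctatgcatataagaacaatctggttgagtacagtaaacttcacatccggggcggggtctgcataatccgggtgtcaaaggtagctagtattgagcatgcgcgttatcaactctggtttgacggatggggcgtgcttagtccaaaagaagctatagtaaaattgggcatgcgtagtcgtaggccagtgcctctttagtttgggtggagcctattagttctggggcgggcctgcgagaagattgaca

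*Hk2*, the hexokinase that insulin and growth factors induce, was the most often called member, passing the rule in 11 of 17 comparisons. With PDGF it was at 2.00 FPKM with LY and 3.79 with PD at 4 hr (1.90-fold lower) and at 3.86 and 8.30 FPKM at 1 hr (2.15-fold lower). With FGF the same comparison gave 6.68 FPKM with LY and 7.25 with PD at 4 hr, and 5.03 and 7.34 FPKM at 1 hr, both short of 1.5-fold. The difference between the ligands in the size of this ratio could not be tested. *Hk2* with ligand alone was at 11.6 FPKM (FGF) and 6.51 FPKM (PDGF). *Hk1*, the constitutive hexokinase, stayed between 19.7 and 28.5 FPKM, so that *Hk2* made up between 7.48% (4 hr PDGF + LY) and 30.9% (4 hr FGF) of the summed FPKM of both. *Slc2a1* (GLUT1, the basal glucose transporter) followed the same order with PDGF at 4 hr, at 19.6 FPKM with LY, 31.9 with PD and 43.6 with PDGF alone. With FGF it was at 43.4, 54.7 and 65.3 FPKM in the matching conditions. At 1 hr *Slc2a1* was at 49.8 FPKM with FGF + LY and 41.8 with FGF + PD, and at 30.2 FPKM with PDGF + LY and 43.9 with PDGF + PD. Among LY and PD pairs it passed 1.5-fold only with PDGF at 4 hr (1.62-fold lower with LY). The windows of *Hk2* and *Slc2a1* are shown for an uptake and a trapping step that passed the rule between LY and PD with PDGF at 4 hr; they hold 2 and 1 copies of ACGTG (in capitals, CACGT on the other strand) and no CACGTG.
Hk2, chr6:82774455-82774704, minus strand: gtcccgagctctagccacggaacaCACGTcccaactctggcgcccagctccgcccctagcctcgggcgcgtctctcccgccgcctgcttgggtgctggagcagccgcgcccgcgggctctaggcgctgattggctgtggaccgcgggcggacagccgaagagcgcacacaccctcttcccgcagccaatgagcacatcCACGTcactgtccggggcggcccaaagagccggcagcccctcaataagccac
Slc2a1, chr4:119108495-119108744, plus strand: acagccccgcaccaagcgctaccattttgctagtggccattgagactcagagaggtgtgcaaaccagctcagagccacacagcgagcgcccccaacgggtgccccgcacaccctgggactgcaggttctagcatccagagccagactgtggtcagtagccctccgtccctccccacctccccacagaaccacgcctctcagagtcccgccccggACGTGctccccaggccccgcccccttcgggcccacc

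*Slc2a3* (GLUT3, a high-affinity glucose transporter) moved in a pattern of its own. At 4 hr it was at 7.29 FPKM with FGF + LY, 1.91 with FGF + PD and 7.44 with FGF alone, so that LY was 3.81-fold above PD and level with FGF. With PDGF the values were 1.92 FPKM with LY, 1.64 with PD and 3.91 with PDGF alone, and both inhibitors were lower than the ligand. At 1 hr it was at 2.56 FPKM with FGF + LY and 2.17 with FGF + PD, and at 1.86 FPKM with PDGF + LY and 2.49 with PDGF + PD. *Slc2a1* supplied 85.6 to 96.6% of the summed FPKM of *Slc2a1* and *Slc2a3*. Other GLUT genes are not in this sum, among them *Slc2a8* (5.25 to 14.4 FPKM), *Slc2a6* (1.89 to 11.3) and *Slc2a10* (4.59 to 9.73).

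*Eno2*, the enolase enriched in neurons, was high with PD at 4 hr rather than low with LY. It was at 7.10 FPKM with FGF + LY, 17.4 with FGF + PD and 5.42 with FGF alone at 4 hr. With PDGF the values were 9.68 FPKM with LY, 23.1 with PD and 8.09 with PDGF alone. PD was therefore 3.22-fold and 2.86-fold above FGF and PDGF alone, and LY was 2.45-fold and 2.39-fold below PD. At 1 hr it was at 12.0 FPKM with FGF + LY and 17.4 with FGF + PD, and at 8.62 FPKM with PDGF + LY and 13.2 with PDGF + PD (1.53-fold lower). *Tubb3*, a tubulin of neurons, also differed in this direction, at 13.7 FPKM with FGF + LY and 73.2 with FGF + PD, and 10.6 with PDGF + LY and 42.6 with PDGF + PD at 4 hr. The summed level of the 5 neuron and glia markers was 13.2 to 16.2 FPKM over the LY conditions and 33.3 to 74.7 over the PD conditions, with 2 of the 5, *Elavl4* and *Snap25*, below 1 FPKM everywhere. The part of such cells in the *Eno2* values was not tested. The promoter window of *Eno2* holds none of the 3 motifs.

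*Eno1*, the main enolase, and *Eno1b*, a near copy on another chromosome, have to be read together. *Eno1b* was at 11.0 FPKM with FGF + LY, 9.75 with FGF + PD and 0.00764 with FGF alone at 4 hr, and at 7.78 FPKM with PDGF + LY, 6.87 with PDGF + PD and 0.0220 with PDGF alone. At 1 hr it was at 8.81 FPKM with FGF + LY and 5.5 with FGF + PD, and at 9.73 FPKM with PDGF + LY and 10.1 with PDGF + PD. It was thus near 0 in the ligand-alone conditions only, and 88.7% of its words occur in other genes. *Eno1* moved the other way, at 53.2 to 73.7 FPKM with an inhibitor and at 119 (FGF) and 129 FPKM (PDGF) with ligand alone. Their sum was 68.3 FPKM with FGF + LY, 83.4 with FGF + PD and 119 with FGF at 4 hr, and 61.0 with PDGF + LY, 68.0 with PDGF + PD and 129 with PDGF. The sum was thus still lower with each inhibitor than with ligand alone. No fold is given for *Eno1b* against values this near 0, and its share in the counts is uncertain.

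Set against ligand alone at 4 hr, more members were lower with LY than with PD under PDGF, and similar numbers under FGF. With LY and PDGF, 16 of 34 members were lower (14.5% of all genes were) and 3 higher (9.84%), with a median log2 ratio of -0.53 beside -0.03 over all genes. With PD and PDGF, 8 of 34 were lower (9.57%) and 3 higher (11.9%), with a median of -0.41 beside -0.00. With LY and FGF, 8 of 34 were lower (12.7%) and 3 higher (11.4%), with a median of -0.16 beside 0.01, and with PD and FGF 7 were lower (11.6%) and 3 higher (11.5%), with a median of -0.21 beside -0.00. Without the members on chromosomes 9 and X, 13 were lower with LY and PDGF, 7 with PD and PDGF, 8 with LY and FGF and 7 with PD and FGF, and the members higher with PD and FGF were 2. Among the 8 reference genes compared, *Actb* was lower with LY and PDGF, at 1124 FPKM beside 1765 with PDGF alone (1.57-fold), and *Rplp0* was lower with PD under both ligands. The median log2 ratio of the reference genes was -0.45 with LY and PDGF, -0.27 with PD and PDGF, -0.12 with LY and FGF and -0.11 with PD and FGF. The part of such a shift in the members' counts was not tested. Comparisons with the same ligand alone share that condition as their denominator, and the LY and PD values are not independent of each other.

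The members lower with LY than with ligand alone under both ligands were *Slc2a1*, *Slc16a3*, *Hk2*, *Aldoc*, *Tpi1*, *Pgam1*, *Eno1* and *Ldha* (8 of 34, beside 8.94% of all genes), and those higher were *Eno1b*, *Pdk2* and *Pdk4* (3 of 34, beside 5.53%). With PD the lower members were *Slc2a3*, *Slc16a3*, *Hk2* and *Eno1* (4 of 34, beside 5.38%), and *Eno1b* and *Eno2* were higher (2 of 34, beside 4.86%). *Ldha* was at 144 FPKM with FGF + LY, 166 with FGF + PD and 242 with FGF alone, and at 118, 135 and 235 FPKM in the matching PDGF conditions. *Ldhb*, the subunit favouring pyruvate, did not follow and ranged from 42.8 to 61.8 FPKM, so the *Ldha* share of both subunits was 68.8 to 78.9% with an inhibitor and 85.0% (FGF) and 81.2% (PDGF) with ligand alone. *Tpi1* (triose phosphate isomerase) was at 57.1 FPKM with FGF + LY, 86.2 with FGF + PD and 94.7 with FGF alone, and at 54.5, 77.2 and 103 FPKM in the PDGF conditions. *Pgam1* (phosphoglycerate mutase) was at 9.05, 10.8 and 15.2 FPKM with FGF + LY, FGF + PD and FGF alone, and at 7.84, 8.27 and 13.6 FPKM with PDGF. *Slc16a3* was at 0.489, 0.703 and 1.71 FPKM in the FGF conditions and at 0.678, 0.994 and 1.75 FPKM in the PDGF conditions at 4 hr. *Ldha*, *Tpi1*, *Pgam1* and *Slc16a3* were thus lowest with LY under both ligands at 4 hr, and PD lay between LY and ligand alone. At 1 hr with FGF the order of the inhibitors was the other way for *Ldha* (152 FPKM with LY and 146 with PD), *Tpi1* (68.9 and 65.5) and *Pgam1* (9.73 and 8.61), by less than 1.5-fold. The 1 hr values of *Slc16a3* were 0.318 FPKM with FGF + LY, 1.08 with FGF + PD, 0.542 with PDGF + LY and 0.450 with PDGF + PD. The PD values of *Slc16a3* at 1 hr were 2.40-fold apart, with that of FGF just above the filter of 1 FPKM and that of PDGF below it.

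Further members passed the rule against ligand alone under one ligand. With PD, *Pfkfb3* was at 5.94 FPKM with FGF + PD and 10.3 with FGF alone, *Pdk4* at 3.44 and 7.18 FPKM and *Rpia* (ribose 5-phosphate isomerase) at 4.17 and 8.46 FPKM, so that these genes were lower in FGF-treated cells. *Pkm* was at 220.4 FPKM with PDGF + LY, 260.4 with PDGF + PD and 413 with PDGF, and *Taldo1* at 53.8, 55.7 and 83.2 FPKM. The *Pkm* value with FGF alone, 229.6 FPKM, is one of those affected on chromosome 9, so a fall of *Pkm* under FGF could not be judged. *Pfkfb2* was the member higher with PD than with PDGF besides the enolases, at 8.01 and 4.78 FPKM, while *Pgls* was lower, at 53.5 and 84.7 FPKM. *G6pdx* was 1.73-fold higher with PD than with FGF alone, at 25.7 and 14.8 FPKM, a comparison that uses the affected condition, and 1.57-fold lower with LY than with PDGF alone, at 15.2 and 23.9 FPKM.

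**Figure D4:**
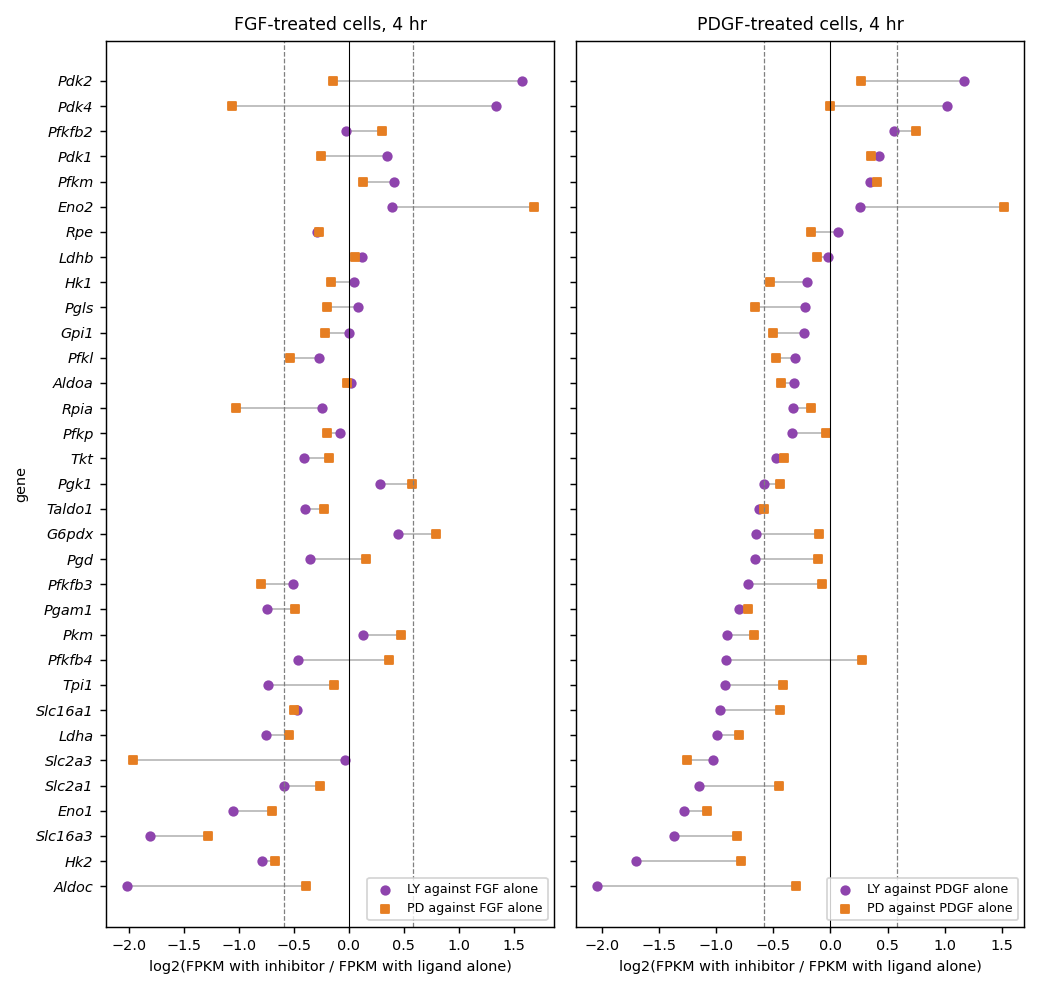
Log2 ratio of FPKM with an inhibitor over FPKM with ligand alone at 4 hr, for 33 members (all but *Gapdh* and *Eno1b*), with FGF left and PDGF right. Purple circles are LY, orange squares PD, and dashed lines mark 1.5-fold. *Aldoc* is far left with LY, and with PD left of 0 but between the dashed lines, under both ligands. *Eno2* is right with PD, and *Pdk2* and *Pdk4* are right with LY.

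The ligand-alone conditions also stood apart as a pair. Grouped after the values had been seen, 7 of 34 members (*Slc16a3*, *Tpi1*, *Pgam1*, *Eno1*, *Ldha*, *Tkt*, *Taldo1*) were lower in all 8 inhibitor conditions, 1 hr included, than in both ligand-alone conditions (11.7% of all genes were), and 1, *Eno1b*, was higher in all (9.25%). Of these 8, *Pgam1*, *Eno1*, *Eno1b*, *Ldha* and *Taldo1* are among the 12 with shared sequence. *Tpi1* shares 18.45% of its words, just under the rule of 20%. It stays in the counts made without shared sequence, as do *Rpe* (19.83%), *G6pdx* (17.73%) and *Pfkp* (17.45%). *Rplp0*, a ribosomal protein gene used as a reference, was at 386 FPKM with FGF + PD and 611 with FGF alone, and at 332 FPKM with PDGF + PD and 652 with PDGF alone. The part of read assignment between near copies in the differences from ligand alone was not tested, and when the members with shared sequence were left out the lower members were 5 of 23 (FGF + LY), 6 of 23 (FGF + PD), 11 of 23 (PDGF + LY) and 4 of 23 (PDGF + PD). By contrast, 5 members (*Hk1*, *Gpi1*, *Pfkl*, *Pdk4*, *Pgls*) had all 4 LY values above all 4 PD values (11% of all genes), and 7 (*Aldoc*, *Pfkfb4*, *Eno2*, *Pkm*, *G6pdx*, *Pgd*, *Tkt*) had all 4 below (11.3%), which for *Hk1*, *Gpi1*, *Pfkl*, *Pgls*, *Pkm*, *G6pdx*, *Pgd* and *Tkt* were differences of less than 1.5-fold in each pair.

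**Figure D5:**
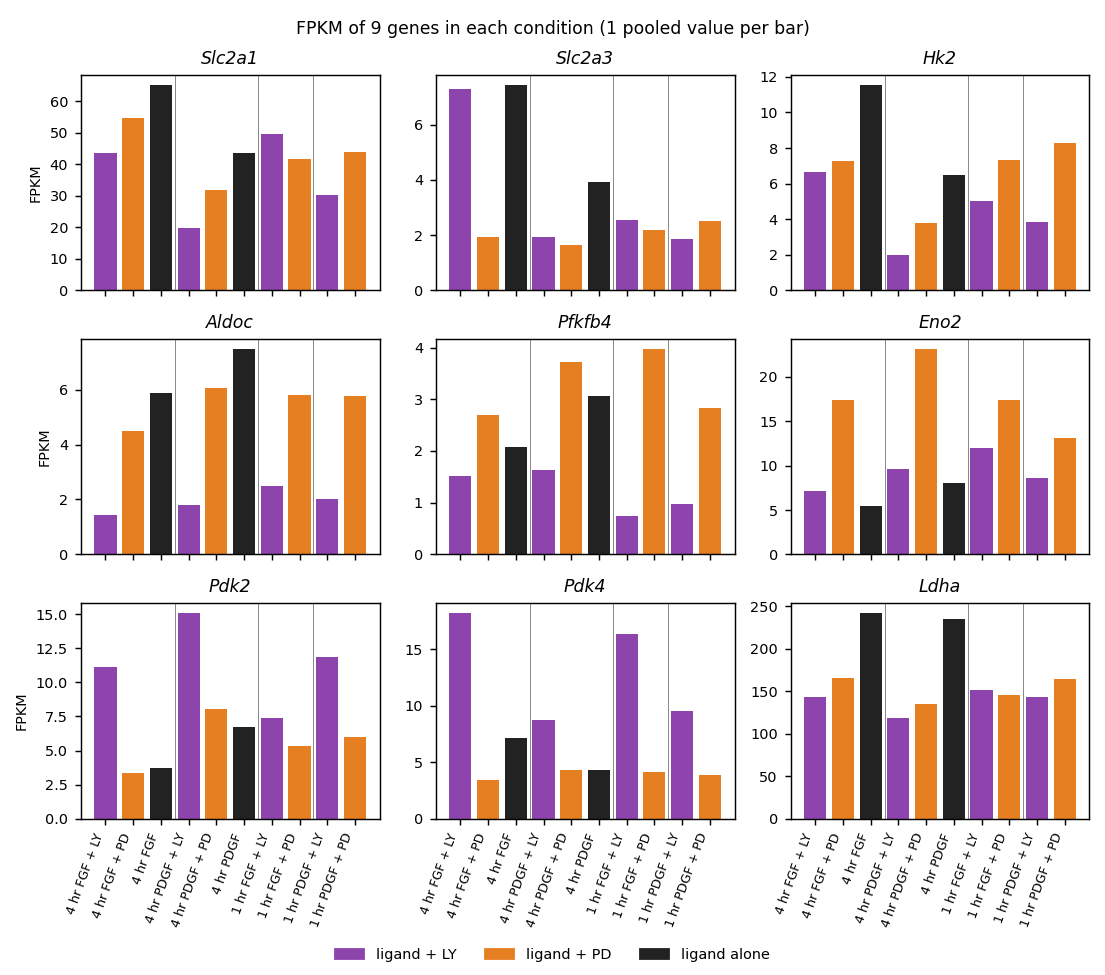
FPKM of 9 members in each of the 10 conditions, 1 pooled value per bar and no error bars. Purple is ligand with LY, orange ligand with PD and black ligand alone. *Pdk4* is tallest in purple, *Aldoc* and *Pfkfb4* are shortest in purple, *Eno2* is tallest in orange at 4 hr, and *Ldha* is tallest in black.

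FGF and PDGF were compared at 4 hr without inhibitor and in each inhibitor condition. At 4 hr without inhibitor, 4 of 33 members were higher with FGF (4.37% of all genes were) and 4 lower (6.58%). The higher ones were *Slc2a3* at 7.44 FPKM with FGF and 3.91 with PDGF, *Hk2* at 11.6 and 6.51, *Pdk4* at 7.18 and 4.30, and *Slc16a1* (the lactate and pyruvate transporter MCT1) at 14.6 and 8.78 FPKM. *Slc2a1*, at 65.3 FPKM with FGF and 43.6 with PDGF, stopped just short at 1.498-fold. The ratios of these 4 genes were 1.66 to 1.90. *Hk1* (25.9 FPKM with FGF and 28.5 with PDGF) and *Slc16a3* (1.71 and 1.75 FPKM) did not pass. Of the lower ones, *Pgk1* (phosphoglycerate kinase), *Pkm* and *G6pdx* (glucose 6-phosphate dehydrogenase) lie on the affected parts of chromosomes 9 and X. *Pgk1* had 16.5 FPKM with FGF, against 25.4 with PDGF, *Pkm* at 229.6 and 413 FPKM and *G6pdx* at 14.8 and 23.9 FPKM. Without members there, 1 of 29 was lower, *Pdk2*, at 3.73 FPKM with FGF and 6.70 with PDGF (1.80-fold).

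*Hk2* and *Slc16a1* were also higher with FGF under either inhibitor at 4 hr, in comparisons that do not use the affected condition, and *Slc2a3* and *Pdk4* under LY. With LY, 6 of 33 members were higher with FGF (8.95% of all genes) and 1 lower (9.51%). *Slc2a1* was at 43.4 FPKM with FGF + LY and 19.6 with PDGF + LY (2.21-fold), *Slc16a1* at 10.6 and 4.49 FPKM (2.35-fold), *Hk2* at 6.68 and 2.00 FPKM (3.34-fold) and *Slc2a3* at 7.29 and 1.92 FPKM (3.79-fold). *Pfkfb3* and *Pdk4* were also higher with FGF, by 1.74-fold and 2.09-fold, and *Pfkfb2* was lower. With PD, *Slc2a1*, *Slc16a1* and *Hk2* were higher with FGF (3 of 33, beside 6.2% of all genes), by 1.71-fold, 1.60-fold and 1.91-fold, *Slc2a3* did not pass (1.91 and 1.64 FPKM), and *Pfkm* (the muscle-type phosphofructokinase), *Pfkfb2*, *Pdk1* and *Pdk2* were lower (4 of 33, beside 13.2%). At 1 hr, *Slc2a1* and *Pdk4* were higher and *Pdk2* lower with FGF under LY (2 of 32 beside 4.14%, and 1 beside 2.76%). Under PD, *Slc16a3* was higher and *Pfkfb3* and *Eno1b* lower (1 of 34 beside 3.76%, and 2 beside 1.65%). No member had all 4 FGF values with inhibitor above all 4 PDGF values or below them, and 1.38% and 1.19% of all genes did.

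Between 4 hr and 1 hr, the members past the rule were about as frequent as among all genes in each inhibitor condition. With FGF + LY, 5 of 33 were higher at 4 hr (11.4% of all genes) and 3 lower (12.2%). *Slc2a3* was at 7.29 FPKM at 4 hr and 2.56 at 1 hr (2.85-fold), *Pfkfb4* at 1.52 and 0.753, *Pfkfb3* at 7.24 and 4.32, *Rpia* at 7.16 and 3.87 and *Pdk2* at 11.1 and 7.38 FPKM. *Aldoc*, *Pfkfb2* and *Eno2* were lower at 4 hr, by 1.69-fold to 1.71-fold. With FGF + PD, *Eno1b* was higher at 4 hr (1 of 34, beside 4.44%) and *Slc16a3*, *Pfkm*, *Pfkfb2* and *Pdk2* lower (4, beside 9.92%). With PDGF + LY, *Pfkfb4* was higher (1 of 33, beside 4.91%) and *Slc2a1* and *Hk2* lower (2, beside 5.51%). *Hk2* was also lower with PDGF + PD, at 3.79 FPKM at 4 hr and 8.30 at 1 hr, as was *Slc2a3*, while *Eno2* was higher (2 of 33 lower beside 3.63%, and 1 higher beside 8.27%).

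Of the pentose phosphate genes, *Rpia* had the widest range over the 10 conditions, 3.87 to 8.46 FPKM. Of the oxidative steps, *G6pdx* ranged from 14.8 FPKM, with 4 hr FGF alone, to 25.7, *Pgls* (6-phosphogluconolactonase) from 53.5 to 84.7, and *Pgd* (6-phosphogluconate dehydrogenase) from 48.3 to 89.0 FPKM. *Pgd* was at 48.3 FPKM with PDGF + LY, 70.8 with PDGF + PD and 76.4 with PDGF alone at 4 hr, and 1.58-fold below PDGF alone with LY. *Pgls* went the other way, with 4 LY values of 72.1 to 80.3 FPKM and 4 PD values of 53.5 to 59.2. In the non-oxidative branch, *Rpe* (ribulose 5-phosphate epimerase) and *Tkt* (transketolase, counted together with a microRNA entry) stayed within 1.42-fold over all conditions and *Taldo1* (transaldolase) within 1.55-fold. *Rpia* was at 7.16 FPKM with FGF + LY, 4.17 with FGF + PD and 8.46 with FGF alone at 4 hr, and at 3.87 and 6.01 FPKM with LY and PD at 1 hr, so its LY to PD difference turned round between the times.

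Other genes of these pathways were read from lists that had been chosen with earlier results known. Of 29 other isoforms of the same steps, 13 could be compared between LY and PD with FGF at 4 hr and 15 with PDGF, of which 2 and 3 were higher (11.6% and 6.97% of all genes were) and 6 and 5 lower (12.6% and 12.8%). *Slc2a6* (GLUT6) was at 1.89 FPKM with FGF + LY and 9.90 with FGF + PD, and at 2.27 and 10.4 FPKM with PDGF, and *Slc2a4* (GLUT4, the insulin-responsive transporter) at 0.742 and 2.90 FPKM with FGF and 0.850 and 4.53 with PDGF. *Slc2a8* (GLUT8) ran the other way, at 11.6 FPKM with FGF + LY and 5.25 with FGF + PD, and at 14.4 and 7.14 FPKM with PDGF. *Eno3*, the muscle enolase, was at 9.16 FPKM with FGF + LY and 37.0 with FGF + PD, and at 9.69 and 26.3 FPKM with PDGF; the summed level of 6 muscle markers was 12.7 to 20.1 FPKM over the LY conditions and 17.0 to 27.2 over the PD conditions, with *Myod1*, *Ckm* and *Tnnt3* below 1 everywhere. The sum was mostly *Acta1*, which with PDGF at 4 hr ran against *Eno3*, at 19.2 FPKM with LY and 12.6 with PD. With FGF, *Acta1* was at 19.1 and 21.6 FPKM. *Myog* and *Des* went with *Eno3* but were low. At 4 hr *Myog* was at 0 FPKM with FGF + LY and 1.44 with FGF + PD, and at 0.140 and 2.06 with PDGF. *Des* was at 0.597 and 3.47 FPKM with FGF, and at 0.321 and 1.37 with PDGF. The part of muscle cells in the *Eno3* values was not tested. *Txnip*, a brake on glucose uptake that responds to MondoA and glucose phosphates, was 4.48-fold higher with FGF + LY than with FGF + PD at 4 hr (40.9 and 9.11 FPKM) and 10.5-fold higher at 1 hr (96.9 and 9.24 FPKM). With PDGF it was at 70.6 FPKM with LY and 17.8 with PD at 4 hr, and at 109 and 7.0 FPKM at 1 hr.

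Beyond pyruvate, the phosphatases that oppose the PDKs moved in opposite directions. *Pdp1* was at 9.30 FPKM with FGF + LY and 3.22 with FGF + PD, and at 5.54 and 2.42 FPKM with PDGF at 4 hr, whereas *Pdp2* was at 2.14 and 3.90 FPKM with FGF and 1.23 and 3.42 with PDGF. Of 17 genes of the TCA cycle, 0 passed 1.5-fold between LY and PD in any of the 4 pairs. Of the 9 other NADPH genes that could be compared, 5 were lower (12.6% of all genes were) and 1 higher (11.6%) with LY than with PD in FGF-treated cells at 4 hr, and 4 lower (12.8%) in PDGF-treated cells; *Idh1* (cytosolic isocitrate dehydrogenase) was at 51.2 FPKM with FGF + LY and 118 with FGF + PD, and at 66.2 and 135 FPKM with PDGF. *Psph*, the last enzyme of serine synthesis from 3-phosphoglycerate, was at 18.7 FPKM with FGF + LY and 33.9 with FGF + PD, and at 17.8 and 30.9 FPKM with PDGF. *Myc*, a known driver of *Ldha* and *Slc2a1*, was higher with LY than with PD in each pair, at 49.8 and 14.6 FPKM with FGF and 11.8 and 5.85 FPKM with PDGF at 4 hr. *Hif1a* was 1.68-fold lower with LY in FGF-treated cells at 4 hr and less than 1.5-fold apart in the other pairs.

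Across the 33 members with a RefSeq promoter, 6 had CACGTG in at least 1 window (*Slc16a1*, *Pfkm*, *Pfkfb2*, *Pfkfb3*, *Ldha*, *Pdk2*), and 11 had ACGTG outside it (*Slc2a1*, *Slc16a3*, *Hk2*, *Pfkm*, *Aldoa*, *Pfkfb2*, *Pfkfb3*, *Pgk1*, *Pgam1*, *Pkm*, *Ldha*). Counted per window, 6 of 50 held CACGTG and 12 of 50 ACGTG outside it, beside 6.02% and 11.4% of all 32851 windows. *Ldha*, lower with LY than with ligand alone under both ligands, is shown by the window that holds both motifs. The other *Ldha* window holds neither.
Ldha, chr7:46845554-46845803, plus strand: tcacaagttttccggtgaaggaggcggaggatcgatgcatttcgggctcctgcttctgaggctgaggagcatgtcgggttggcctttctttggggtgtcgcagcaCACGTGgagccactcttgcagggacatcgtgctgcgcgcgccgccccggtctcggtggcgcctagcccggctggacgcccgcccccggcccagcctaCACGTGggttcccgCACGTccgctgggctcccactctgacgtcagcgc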

How the data were processed

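Poly-A RNA of 22 samples in 10 conditions was sequenced. The authors used CASAVA for base calling and TopHat for alignment to mm10, per the submitters' processing notes, and Cuffdiff gave the deposited FPKM, 1 value pooled over the samples of a condition; versions and the treatment of multiply mapped reads are not given in the sources used here. The table holds 23286 RefSeq entries, of which 22749 carry 1 gene symbol. It also holds 3 columns of other conditions, which were not used.

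The members and gene lists were chosen with earlier results of these data known. Ratios were calculated without pseudocount or rescaling in 17 comparisons, with the size rule of 1.5-fold among entries with FPKM above 1 in either condition. Values in every condition were given for members past 1.5-fold in the same direction with both ligands between LY and PD at 4 hr, or in at least 5 of the 9 main comparisons. The other members were given by range and counts, with values for those that passed in any main comparison, and the groupings of conditions were chosen after values were seen. The other genes described are a selection of those that passed in the same direction with both ligands, or served as checks. Further listed genes that passed in this way, such as *Slc2a9*, *Me1* and *Nqo1*, are not described. *Hif1a* was chosen after its values were seen. The share of 31-base words in other genes came from GENCODE transcripts of GRCm38, and promoters from RefSeq (GRCm38.p6), where 33 members matched by symbol. Reads per gene are unknown, so no precision was calculated. The procedure was tested on simulated data. Calculations used Python 3.11.15, pandas 2.3.3, NumPy 2.4.6 and matplotlib 3.10.9.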

Additional observations from a re-analysis of the deposited data

How the results depend on the processing

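No count of members past the size rule turned to the other direction under the alternatives run; of the median log2 ratios, those of 4 comparisons, all near 0, changed sign. That of LY against PD with FGF at 1 hr was 0.07 over all members compared and -0.16 without those that share sequence. That of LY against PD with FGF at 4 hr was -0.02, and 0.07 without them. With PD at 4 hr, that of FGF against PDGF was 0.15, and -0.02 without them, and with FGF + PD that of 4 hr against 1 hr was 0.08, and -0.02 without them. No filter, a pseudocount of 1 and rescaling by the median ratio left the counts and medians of the 9 main comparisons within the limits set. With a size rule of 2-fold, 0 members were higher and 0 lower with FGF than with PDGF; lower than ligand alone were 3 (FGF + LY), 4 (FGF + PD), 6 (PDGF + LY) and 2 (PDGF + PD); between LY and PD at 4 hr, 3 were higher and 2 lower with FGF, and 1 higher and 3 lower with PDGF, and at 1 hr 1 was higher with either ligand. With FPKM of at least 5, the median log2 ratio of PDGF + LY to PDGF was -0.41, and 2 members were lower with LY than with PD under FGF at 4 hr and 2 at 1 hr. Without the members that share sequence, 2 were lower with FGF than with PDGF, 5 with FGF + LY than with FGF (median -0.27), and 4 lower and 1 higher with PDGF + PD than with PDGF (median -0.17), and between LY and PD with FGF at 1 hr 1 was higher. Without the members on chromosomes 9 and X, an alternative chosen after seeing the data, 1 was lower with FGF than with PDGF and the median of PDGF + LY to PDGF was -0.33. The cause of the moved counts was not tested where fewer members or a stricter rule does not give it by construction. No paired analysis was possible because the table holds 1 pooled value per condition, and for the same reason no replicate could be left out.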
